A study of Homo sapiens and Mus musculus with 21 samples.

Results

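Iron enters cells, is stored, leaves them and is sensed through a small set of proteins, and 10 genes that encode them were followed across every experiment of a study of the RNA helicase DHX15 in T cell leukaemia and in the thymus. The genes were taken by name: TFRC and SLC11A2 (uptake), FTH1, FTL and NCOA4 (storage), SLC40A1 (export), IREB2, ACO1 and FBXL5 (sensing) and HMOX1 (release of iron from heme). They are 10 genes beside the 19848 listed in the RPKM table, where 9 of them were analysed, and the 23037 listed in the ciclopirox table, where 9 were analysed. All 10 were found among the 28692 genes of the mouse thymus matrices, in which the counterpart of FTL is Ftl1. HMOX1 was not analysed here in the bulk libraries.

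The bulk libraries were polyadenylated RNA of CUTLL1, a human cell line established from T cell acute lymphoblastic leukaemia (T-ALL). In one experiment CUTLL1 cells carried lentiviral hairpin shDHX15-1, hairpin shDHX15-2 or the hairpin shGFP as control, with 3 libraries each. In another, CUTLL1 cells were exposed to 5 µM ciclopirox, an antifungal that binds iron, or to its solvent DMSO, with 3 libraries each, and the hours of exposure were not given in the sources used here. A further experiment immunoprecipitated DHX15 with its bound RNA from CUTLL1 (2 libraries, beside 1 IgG and 1 input library), and 1 list of peaks was given. Single thymus cells came from 6-week-old mice, 1 library labelled DHX15-KO and 1 labelled DHX15-flox, taken here as the floxed control without deletion, which the label does not state. The Cre line and the deleted exons were not given in the sources used here, nor whether animals were pooled. The labels do not tell whether the 3 libraries of a bulk group are separate cultures; p-values then reflect only how far these libraries spread, and that spread could be technical.

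Transferrin receptor, encoded by TFRC, takes up iron-loaded transferrin, and the transporter encoded by SLC11A2 moves the released iron out of endosomes. Spare iron is held in ferritin, a shell built of FTH1 heavy and FTL light chains, and NCOA4 hands ferritin to lysosomes when iron is needed. The iron regulatory proteins, encoded by ACO1 and IREB2, bind iron-responsive elements (IREs) in mRNA when iron is scarce, which protects TFRC mRNA from decay and holds back translation of ferritin mRNA. FBXL5 marks the IREB2 protein for breakdown when iron is plentiful, SLC40A1 (ferroportin) exports iron, and HMOX1 splits heme and frees its iron. Dividing T cells, leukaemic or thymic, are known for high transferrin receptor.

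The promoters of TFRC, SLC40A1, FTL and FBXL5 and the IRE of FTL are shown here because the largest changes with shDHX15-1, described below, were in these 4 genes. Promoter windows of 250 bases before to 50 bases after a RefSeq start (GRCh38.p14) were found for 8 of the 10 genes, all but FTH1 and HMOX1. The first 4 lines below are the 250 bases before the start of TFRC (chr3:196082091-196082340, minus strand), SLC40A1 (chr2:189580787-189581036, minus strand), FTL (chr19:48965059-48965308, plus strand) and FBXL5 (chr4:15655358-15655607, minus strand). Capitals mark matches, on either strand, to ACGTG, the core bound by hypoxia-inducible factors, and to TGACNNNGC, the antioxidant response element bound by NFE2L2. The last line is a stretch of 30 bases at the start of the FTL transcript (chr19:48965329-48965358, plus strand), where capitals mark the IRE from its bulged C to the end of its CAGTG loop.
TFRC promoter: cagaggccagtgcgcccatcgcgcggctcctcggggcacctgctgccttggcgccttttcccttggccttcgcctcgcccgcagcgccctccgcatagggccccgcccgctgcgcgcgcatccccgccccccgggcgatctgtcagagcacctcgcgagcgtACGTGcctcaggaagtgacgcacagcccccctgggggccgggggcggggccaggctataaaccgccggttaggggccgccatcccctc
SLC40A1 promoter: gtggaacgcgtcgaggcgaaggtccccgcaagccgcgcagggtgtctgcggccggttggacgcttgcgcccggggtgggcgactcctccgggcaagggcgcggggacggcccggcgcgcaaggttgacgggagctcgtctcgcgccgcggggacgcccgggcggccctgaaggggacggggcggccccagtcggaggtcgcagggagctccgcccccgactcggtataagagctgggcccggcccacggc
FTL promoter: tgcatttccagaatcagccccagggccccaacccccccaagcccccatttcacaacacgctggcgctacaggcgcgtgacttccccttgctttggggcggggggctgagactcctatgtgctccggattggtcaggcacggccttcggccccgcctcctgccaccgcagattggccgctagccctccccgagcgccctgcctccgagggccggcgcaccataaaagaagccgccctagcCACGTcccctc
FBXL5 promoter: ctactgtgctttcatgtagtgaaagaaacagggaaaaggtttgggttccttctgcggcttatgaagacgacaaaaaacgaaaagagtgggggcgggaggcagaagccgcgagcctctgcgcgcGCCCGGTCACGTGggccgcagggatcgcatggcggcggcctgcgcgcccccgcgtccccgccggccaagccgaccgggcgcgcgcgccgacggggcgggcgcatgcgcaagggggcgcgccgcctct
FTL IRE: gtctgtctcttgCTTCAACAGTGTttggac

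ACGTG was matched in the windows of TFRC, FTL and FBXL5, and 21.4% of all 34943 windows held it on either strand. In TFRC the match began 88 bases before the start and in FTL 11 bases before it. The FBXL5 match is the palindrome CACGTG, which contains ACGTG on both strands and which 7.23% of windows held. TGACNNNGC was matched in FBXL5 and NCOA4, against 13.3% of windows, and in FBXL5 it overlaps CACGTG. No letters of either motif were found in the SLC40A1 window shown. The IRE letters (a C, any 5 bases, then CAGTG), read on the plus strand, were matched in FTL, and 10.2% of windows held them. These matches describe the letters of the windows and do not show binding.

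Depth was alike within each bulk experiment. The hairpin libraries held 59702150 to 62633707 reads and the ciclopirox and DMSO libraries 32451469 to 37177509. DHX15 averaged 16.97 ± 0.43 RPKM with shDHX15-1 and 16.5 ± 0.36 RPKM with shDHX15-2, against 43.4 ± 0.65 RPKM with shGFP (SD, n = 3 each). In the ciclopirox experiment DHX15 averaged 9467 ± 661 normalised counts with ciclopirox and 15832 ± 1171 with DMSO (SD, n = 3 each). T lineage genes were present in all hairpin libraries, with CD3D at 241 to 312 RPKM and CD3E at 135 to 210.0 RPKM. Their levels varied between libraries, as for CD7 (55.3 to 144 RPKM) and NOTCH3 (2.88 to 9.38 RPKM). Of markers of other cells, CD79A (B cells) was at 23.6 to 59.6 RPKM, CD68 (myeloid cells) at 2.05 to 6.54 RPKM and CSF1R (macrophages) at no more than 0.0159 RPKM. In the ciclopirox experiment CD3D was at 10179 to 19387 normalised counts, NOTCH3 at 642 to 2105, CD79A at 963 to 1630.0, CSF1R at 107 to 181 and CD68 at 12.9 to 27.8. The part of these markers in the results was not tested. DMSO replicate 1 stood apart: its counts differed from those of DMSO replicates 2 and 3 by a chi-square per degree of freedom of 38.2 and 39.1, against 3.44 between DMSO replicates 2 and 3. Ciclopirox libraries differed among themselves by 14.3 to 27.5 on the same measure.

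With shDHX15-1, 6 of the 9 iron genes passed the test (limma, adjusted p under 0.05): FBXL5 and NCOA4 rose, and TFRC, FTL, SLC40A1 and FTH1 fell. With shDHX15-2, 6 of 9 passed as well: FBXL5, NCOA4 and SLC11A2 rose, and TFRC, SLC40A1 and ACO1 fell. Both hairpins share the shGFP libraries as reference. Against these counts, 74.3% of all 15022 genes tested were called with shDHX15-1 and 65.7% with shDHX15-2, so a share of 6 in 9 is near the background and is no result about the iron genes as a group. By direction, 45.4% of all genes rose and 28.9% fell with shDHX15-1, and 35.6% rose and 30.1% fell with shDHX15-2. Between the hairpins, shDHX15-2 over shDHX15-1, 5 of the 9 were higher and 3 lower, against 23.2% and 37.9% of all genes and 61.1% in either direction. The median log2 fold change of the 9 genes was -0.06 with shDHX15-1, against 0.09 over all genes, and 0.02 with shDHX15-2, against 0.03 over all genes. Median-centring the libraries lowered the median of all genes by 0.11 with shDHX15-1 and the share of called genes that were higher to 46.0%, against 61.1% as deposited. Fold changes are on the log2(RPKM + 1) scale, which understates the change of low genes, and fewer cells of a type and less RNA per cell cannot be told apart in bulk libraries.

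**Figure D1:**
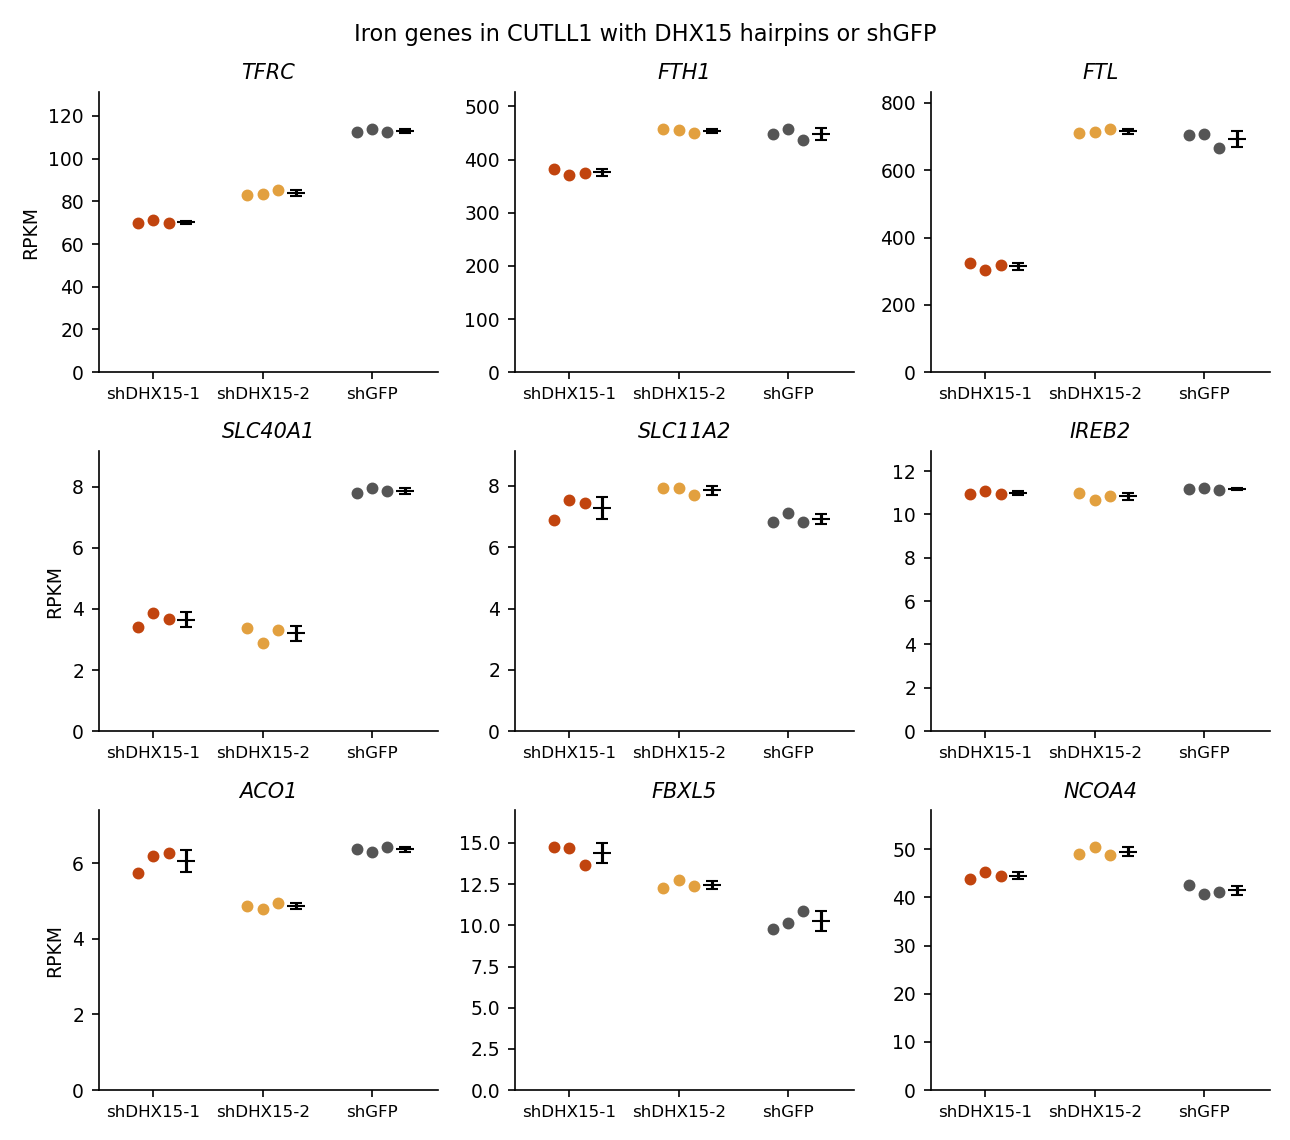
RPKM of 9 iron genes in each CUTLL1 library (points) with shDHX15-1, shDHX15-2 or shGFP, 3 libraries each; bars beside the points are the mean and SD, and each vertical axis starts at 0. TFRC and SLC40A1 were lower with both hairpins than with shGFP, while FTL was lower with shDHX15-1 (mean 315 RPKM) and not with shDHX15-2 (716 RPKM).

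Of the uptake genes, TFRC fell with both hairpins. TFRC was at 69.6, 71.1 and 69.97 RPKM in the 3 shDHX15-1 libraries, 83.1, 83.3 and 85.4 RPKM in the shDHX15-2 libraries, and 112, 114 and 113 RPKM in the shGFP libraries. The 3 groups did not overlap, and every hairpin library lay below every shGFP library. The log2 fold change was -0.68 ± 0.02 (SE; limma adjusted p = 4.57e-09) for shDHX15-1 against shGFP. It was -0.43 ± 0.02 (SE; limma adjusted p = 1.25e-07) for shDHX15-2 against shGFP. TFRC was thus at 0.621 times its shGFP level with shDHX15-1 and at 0.743 times with shDHX15-2, and it was higher with shDHX15-2 than with shDHX15-1 by a log2 of 0.25 (limma adjusted p = 4.08e-06). Over the 9 hairpin libraries, the genes with the most similar pattern to TFRC among 5733 genes of at least 10 RPKM were STIP1 (Pearson r = 0.999), ASF1A (0.999) and SRSF1 (0.998), as a description over 3 groups whose libraries share treatment and depth.

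SLC11A2, the endosomal iron transporter, moved little. It was at 6.88, 7.54 and 7.43 RPKM with shDHX15-1, 7.93, 7.95 and 7.69 RPKM with shDHX15-2, and 6.84, 7.11 and 6.83 RPKM with shGFP. The shDHX15-1 and shGFP libraries overlapped, whereas all shDHX15-2 libraries lay above the shGFP libraries. It rose with shDHX15-2 by a log2 of 0.16 ± 0.04 (SE; limma adjusted p = 0.0033). The difference for shDHX15-1, 0.06 on the log2 scale (limma adjusted p = 0.134), did not pass and changed sign to -0.04 after median-centring.

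The storage genes separated the hairpins. FTL, the ferritin light chain, was at 323, 304 and 318 RPKM with shDHX15-1, 709.5, 714 and 724 RPKM with shDHX15-2, and 705, 707 and 665 RPKM with shGFP. All shDHX15-1 libraries lay at less than 0.5 times any other library, while the shDHX15-2 libraries lay just above the shGFP libraries. FTL fell with shDHX15-1 by 1.13 on the log2 scale (SE 0.03; limma adjusted p = 5.69e-09), to 0.455 times the shGFP level. With shDHX15-2 its log2 difference from shGFP was 0.05 ± 0.03 (SE; limma adjusted p = 0.19), which turned to -0.04 after quantile normalisation. The difference between the hairpins was itself tested: FTL was 2.27 times as high with shDHX15-2 as with shDHX15-1 (log2 1.18 ± 0.03 SE; limma adjusted p = 2.7e-08), although DHX15 did not differ between them beyond its spread (log2 -0.04; limma adjusted p = 0.2).

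FTH1, the ferritin heavy chain, followed the same order with a smaller step. It was at 383, 371 and 374 RPKM with shDHX15-1, 458, 455 and 451 RPKM with shDHX15-2, and 449, 458 and 437 RPKM with shGFP. The shDHX15-1 libraries were the lowest, and the shDHX15-2 and shGFP libraries overlapped. FTH1 fell with shDHX15-1 by a log2 of -0.25 ± 0.02 (SE; limma adjusted p = 5.9e-06). With shDHX15-2 the log2 difference was 0.02 (limma adjusted p = 0.4), with a sign that turned to -0.02 after median-centring. The difference between shDHX15-2 and shDHX15-1 was 0.27 on the log2 scale (limma adjusted p = 8.58e-06). As RPKM is a level per length, the 2 chains can be set side by side: the mean FTL level was below that of FTH1 with shDHX15-1 (315 and 376 RPKM), and above it with shDHX15-2 (716 and 455 RPKM) and with shGFP (692 and 448 RPKM). Reads of ferritin pseudogenes are hard to separate from both genes, and listed FTH1 pseudogenes summed to at most 0.762% of FTH1 and FTL pseudogenes to at most 0.0781% of FTL. The genes with the most similar pattern to FTH1 over the 9 libraries were TBCB (Pearson r = 0.997), SAR1A (0.994) and LAPTM5 (0.993).

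NCOA4, the receptor that carries ferritin to lysosomes, was higher with both hairpins. It was at 43.7, 45.2 and 44.5 RPKM with shDHX15-1, 49.1, 50.6 and 48.8 RPKM with shDHX15-2, and 42.5, 40.7 and 41.2 RPKM with shGFP. The 3 groups did not overlap. NCOA4 rose with shDHX15-2 by a log2 of 0.25 ± 0.02 (SE; limma adjusted p = 1.63e-05). Its rise with shDHX15-1, 0.10 ± 0.02 (SE, limma adjusted p = 0.00391), was close to the median of all genes (0.09) and depended on the scaling. It became -0.01 after median-centring (limma adjusted p = 0.749) and 0.18 after quantile normalisation (limma adjusted p = 0.000177). Over the alternatives tried its adjusted p ranged between 0.000177 and 0.977.

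SLC40A1, the iron exporter, fell furthest of the 9 genes with shDHX15-2 and second to FTL with shDHX15-1. It was at 3.41, 3.87 and 3.67 RPKM with shDHX15-1, 3.38, 2.90 and 3.30 RPKM with shDHX15-2, and 7.79, 7.97 and 7.84 RPKM with shGFP. Every hairpin library lay below 0.5 times every shGFP library. The log2 fold change was -0.93 ± 0.05 (SE; limma adjusted p = 3.9e-07) with shDHX15-1. It was -1.08 ± 0.05 (SE; limma adjusted p = 3.27e-07) with shDHX15-2. The hairpins differed from each other by -0.15 on the log2 scale (shDHX15-2 over shDHX15-1; limma adjusted p = 0.0322), a call that was lost under several settings and over all of them had adjusted p between 0.0181 and 0.423.

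Of the sensing genes, FBXL5 rose with both hairpins. FBXL5 was at 14.8, 14.7 and 13.7 RPKM with shDHX15-1, 12.3, 12.7 and 12.4 RPKM with shDHX15-2, and 9.75, 10.1 and 10.9 RPKM with shGFP. The groups did not overlap, and the shGFP libraries were the lowest. The log2 fold change was 0.45 ± 0.04 (SE; limma adjusted p = 1.08e-05) with shDHX15-1. It was 0.26 ± 0.04 (SE; limma adjusted p = 0.000568) with shDHX15-2.

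ACO1, the iron regulatory protein that doubles as cytosolic aconitase, fell with shDHX15-2. It was at 5.73, 6.17 and 6.27 RPKM with shDHX15-1, 4.86, 4.78 and 4.93 RPKM with shDHX15-2, and 6.36, 6.28 and 6.43 RPKM with shGFP. The shDHX15-2 libraries were the lowest, and the shDHX15-1 libraries lay just under the shGFP libraries. The log2 fold change with shDHX15-2 was -0.33 ± 0.03 (SE; limma adjusted p = 3.12e-05). With shDHX15-1 it was -0.06 (limma adjusted p = 0.133), and -0.17 after median-centring (limma adjusted p = 0.00126), with adjusted p between 0.000105 and 0.44 over the alternatives. shDHX15-2 against shDHX15-1 gave -0.27 on the log2 scale (limma adjusted p = 0.00015).

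IREB2, the other iron regulatory protein, lay within 10.9 to 11.1 RPKM with shDHX15-1, 10.7 to 11.00 RPKM with shDHX15-2 and 11.1 to 11.2 RPKM with shGFP. The log2 differences were -0.02 (limma adjusted p = 0.379) with shDHX15-1 and -0.04 (limma adjusted p = 0.13) with shDHX15-2. Both stayed negative under all 14 alternatives and passed under some of them, at -0.13 with shDHX15-1 and -0.08 with shDHX15-2 after median-centring; over those alternatives the adjusted p lay between 8.86e-06 and 0.543 with shDHX15-1 and between 0.0085 and 0.328 with shDHX15-2.

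In shGFP cells the order of the levels was FTL, FTH1, TFRC, NCOA4, IREB2, FBXL5, SLC40A1, SLC11A2 and ACO1, and no neighbours in this order overlapped over the 3 libraries. TFRC averaged 113.0 ± 0.92 RPKM in shGFP cells, and FBXL5, one of the sensing genes, 10.3 ± 0.58 RPKM (SD, n = 3 each). With either hairpin SLC40A1 became the lowest of the 9 genes.

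**Figure D2:**
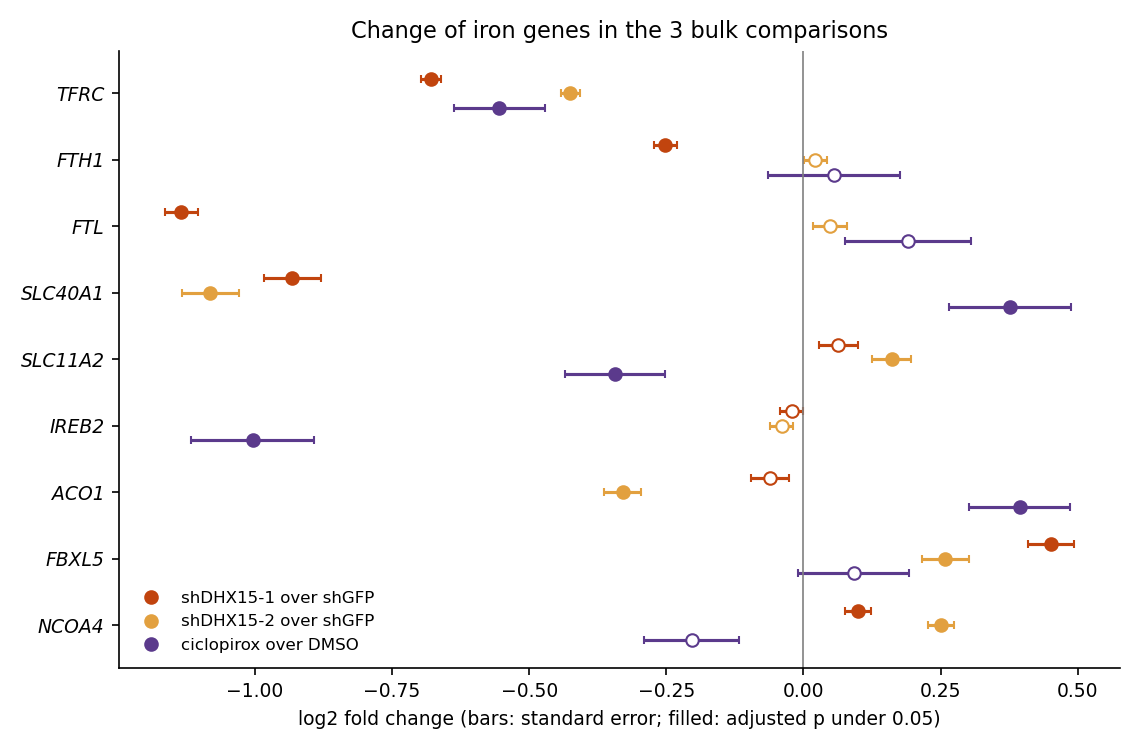
Log2 fold change of 9 iron genes with its standard error (horizontal axis) for shDHX15-1 over shGFP, shDHX15-2 over shGFP and ciclopirox over DMSO; filled points passed adjusted p under 0.05. The hairpins share their shGFP libraries. TFRC was lower in all 3, FTL only with shDHX15-1 among the called values (-1.13), and IREB2 was lowest with ciclopirox (-1.004).

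Ciclopirox was compared with DMSO to see what the compound does to mRNA levels in CUTLL1. Of the 9 iron genes, ACO1 and SLC40A1 rose and TFRC, IREB2 and SLC11A2 fell, while FTH1, FTL, FBXL5 and NCOA4 did not pass the limma test. The authors' deposited adjusted p differs here, and the test that gave it was not established. That value is under 0.05 for FTL (4.04e-05), FBXL5 (0.00376) and NCOA4 (0.0359), and 0.129 for FTH1. The authors' log2 fold changes beside them are 0.18 (SE 0.11) for FTL and 0.09 (SE 0.09) for FBXL5. They are -0.20 (SE 0.08) for NCOA4 and 0.05 (SE 0.11) for FTH1. For FTL and FBXL5 the adjusted p is smaller than the log2 and SE alone would give. Over all 16825 genes tested 48.5% were called, 23.5% higher and 25% lower, so 5 of 9 is near the background. The median log2 fold change of the 9 genes was 0.06, against -0.02 over all genes.

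IREB2 showed the largest change of the 9. It was at 2094, 1982 and 2380.0 normalised counts with ciclopirox and 3773, 4591 and 4598 with DMSO. The groups did not overlap, and the highest ciclopirox library lay well below the lowest DMSO library, replicate 1. IREB2 fell by 1.004 on the log2 scale (SE 0.11; limma adjusted p = 4.29e-05), to 0.498 times the DMSO level.

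TFRC was at 23022, 24647 and 25515 normalised counts with ciclopirox and 33931, 36915 and 36598 with DMSO. All ciclopirox libraries were lower than all DMSO libraries, and TFRC fell with a log2 fold change of -0.55 ± 0.08 (SE; limma adjusted p = 0.000309). SLC11A2 was at 1967, 2194 and 2069.6 normalised counts with ciclopirox and 2649.6, 2568 and 2678 with DMSO, again without overlap. SLC11A2 fell by a log2 of -0.34 ± 0.09 (SE; limma adjusted p = 0.00964). That call was lost without ciclopirox replicate 1 (-0.30; limma adjusted p = 0.0514) and after quantile normalisation (-0.21; limma adjusted p = 0.0759), and over the alternatives its adjusted p lay between 0.00286 and 0.0759.

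ACO1 was at 1826.5, 1883 and 1857 normalised counts with ciclopirox and 1435, 1394 and 1407 with DMSO. The 2 groups were each narrow and did not overlap, and ACO1 rose by a log2 of 0.39 ± 0.09 (SE; limma adjusted p = 0.00458). SLC40A1 was at 777, 806 and 805 normalised counts with ciclopirox and 588, 662 and 592 with DMSO. It rose by a log2 of 0.38 ± 0.11 (SE; limma adjusted p = 0.0168), without overlap between the groups. The SLC40A1 call was lost without DMSO replicate 3 (0.35; limma adjusted p = 0.0664), without ciclopirox replicate 3 (0.37; limma adjusted p = 0.0503) and under both other scalings, with adjusted p between 0.00567 and 0.0664 over the alternatives.

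The ferritin genes did not pass the test with ciclopirox. FTL was at 19473, 19509 and 16823 normalised counts with ciclopirox and 19353, 14934 and 14875 with DMSO. FTH1 was at 28848, 29338 and 24638 normalised counts with ciclopirox and 31816, 24363.5 and 23936 with DMSO. In both genes DMSO replicate 1 lay well above the other two DMSO libraries, and the groups overlapped. The log2 difference of FTL was 0.19 ± 0.12 (SE; limma adjusted p = 0.197), and without DMSO replicate 1 it was 0.32 (limma adjusted p = 0.00526) and after quantile normalisation 0.47 (limma adjusted p = 0.000772), with adjusted p between 0.000772 and 0.493 over the alternatives. That of FTH1 was 0.06 ± 0.12 (SE; limma adjusted p = 0.726) and turned to -0.03 after median-centring, and it passed under none of the 13 alternatives (adjusted p between 0.075 and 0.985).

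NCOA4 was at 5549, 5304 and 5926 normalised counts with ciclopirox and 6197, 6407 and 6712 with DMSO, without overlap. Its log2 difference of -0.20 ± 0.09 (SE; limma adjusted p = 0.0718) did not pass, and did so without DMSO replicate 1 (-0.23; limma adjusted p = 0.0292); quantile normalisation turned it to 0.04, and the adjusted p lay between 0.0146 and 0.712 over the alternatives. FBXL5 was at 2443, 2377 and 2509 normalised counts with ciclopirox and 2046, 2482 and 2371 with DMSO. These groups overlapped, and the log2 difference was 0.09 ± 0.10 (SE; limma adjusted p = 0.481).

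**Figure D3:**
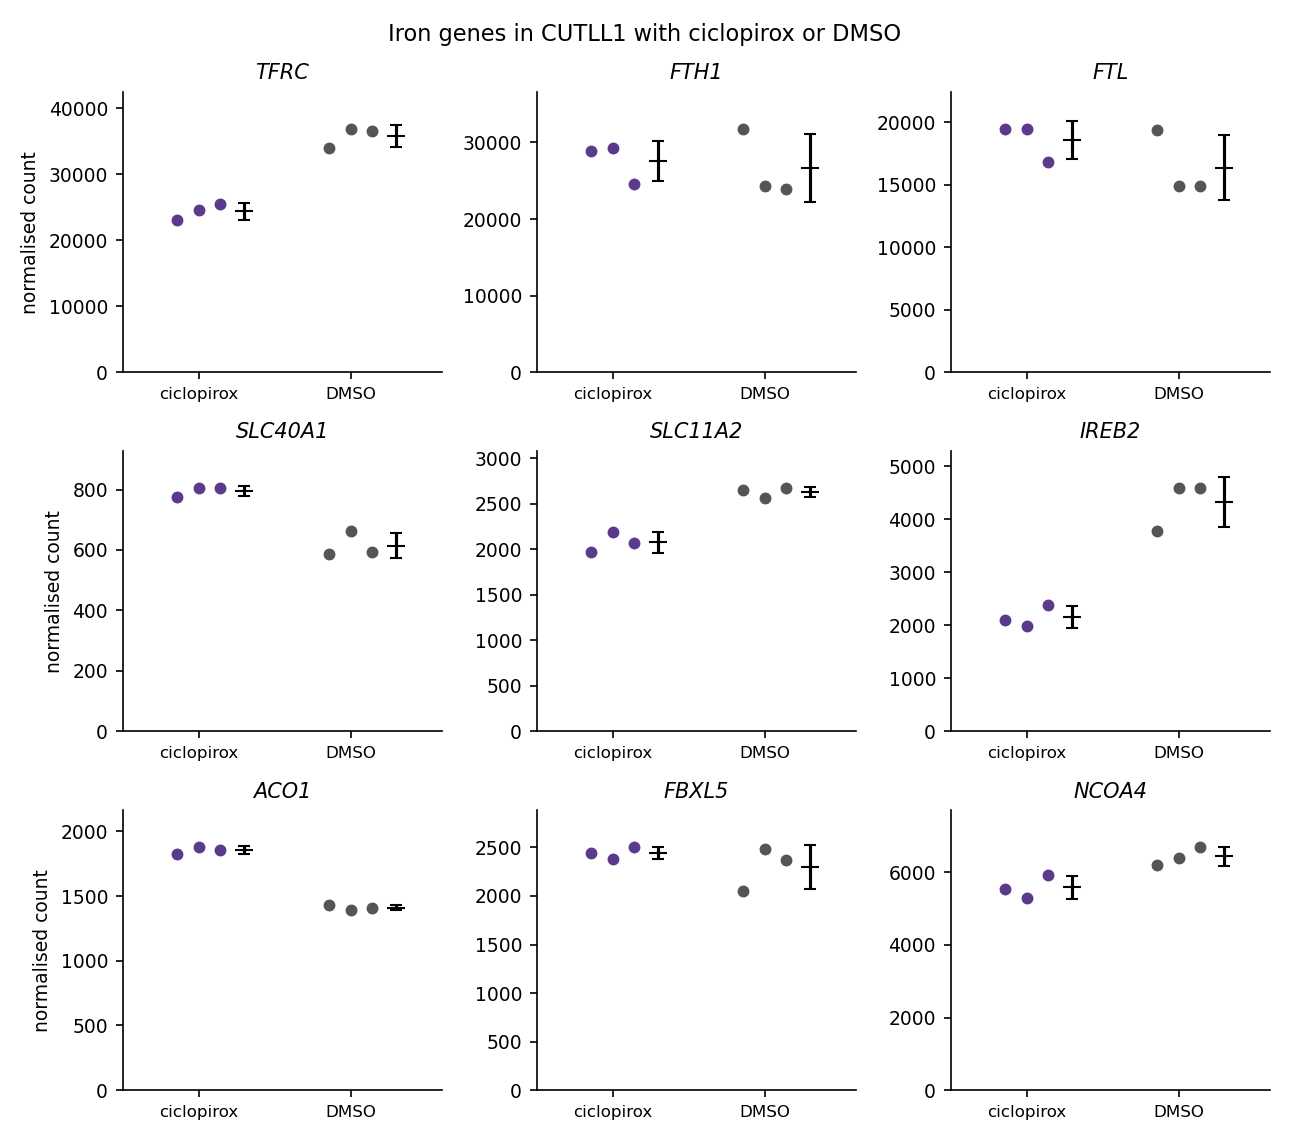
Normalised counts of 9 iron genes in each CUTLL1 library (points) with ciclopirox or DMSO, 3 libraries each, with mean and SD beside them and vertical axes that start at 0. Ciclopirox libraries were lower in TFRC, SLC11A2 and IREB2 and higher in ACO1 and SLC40A1; DMSO replicate 1, the first DMSO point, was the highest DMSO library in FTH1 (31816) and FTL (19353).

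Other genes of iron handling were followed by list, and each count is to be read against the share of all genes called: 74.3% with shDHX15-1 (45.4% higher, 28.9% lower), 65.7% with shDHX15-2 (35.6% higher, 30.1% lower) and 48.5% with ciclopirox (23.5% higher, 25% lower). Of 12 uptake and reduction genes, 4 were tested in each comparison: 1 rose and 2 fell with shDHX15-1, 1 rose and 3 fell with shDHX15-2, and 1 rose and 1 fell with ciclopirox. The median log2 of the list was -0.20 with shDHX15-1 and -0.20 with shDHX15-2, against 0.09 and 0.03 over all genes, and -0.08 with ciclopirox, against -0.02. SLC39A14, a zinc and iron importer, fell to 7.28 ± 0.19 RPKM with shDHX15-1 and 8.34 ± 0.18 RPKM with shDHX15-2, against 14.0047 ± 0.193 RPKM with shGFP, and to 2496 ± 221 normalised counts with ciclopirox, against 4767 ± 97.0 with DMSO (SD, n = 3 each). Its log2 changes were -0.86, -0.68 and -0.94 in that order of groups. CYBRD1, a ferric reductase, rose in the same comparisons, by log2 0.49, 0.19 and 0.64.

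The next list joined 2 kinds of genes, cytosolic iron chaperones and further genes whose mRNAs carry IREs. Of its 10 genes 8 were tested: 3 rose and 2 fell with shDHX15-1, 2 rose and 3 fell with shDHX15-2, and 3 rose and none fell with ciclopirox. The rises with ciclopirox were those of the chaperones PCBP3 and PCBP4 and of EPAS1. EPAS1, an oxygen-regulated transcription factor whose mRNA carries an IRE, was at 4.06 ± 0.22 RPKM with shDHX15-1 and 2.23 ± 0.085 RPKM with shDHX15-2, against 4.96 ± 0.17 RPKM with shGFP (SD, n = 3 each). It fell with both hairpins, by log2 -0.24 (limma adjusted p = 0.000826) and -0.88 (limma adjusted p = 3.56e-07). With ciclopirox EPAS1 rose to 904 ± 81.6 normalised counts, against 348 ± 16.1 with DMSO (SD, n = 3 each; log2 1.37, limma adjusted p = 9.52e-06). The iron chaperone PCBP2 rose with both hairpins, by log2 0.17 and 0.09, against medians of 0.09 and 0.03 over all genes. PCBP1, another chaperone of the list, passed with neither hairpin. Its log2 difference was 0.02 with shDHX15-1 (limma adjusted p = 0.347) and 0.02 with shDHX15-2 (limma adjusted p = 0.37).

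Mitochondrial iron import and iron-sulphur assembly counted 20 genes tested of 21 with the hairpins: 5 rose and 11 fell with shDHX15-1 (median log2 -0.16, against 0.09 over all genes), and 5 rose and 8 fell with shDHX15-2 (median -0.07, against 0.03). With ciclopirox 19 were tested, of which 3 rose and 4 fell. FDXR, the ferredoxin reductase, rose to 5297 ± 517 normalised counts with ciclopirox, against 1009 ± 102 with DMSO (SD, n = 3 each; log2 2.39, limma adjusted p = 1.35e-07), and by log2 0.73 with shDHX15-1 and 0.34 with shDHX15-2. NDUFAB1, the mitochondrial acyl carrier that also serves iron-sulphur assembly, fell by log2 -0.76 with shDHX15-1, -0.50 with shDHX15-2 and -0.83 with ciclopirox. SLC25A28, a mitochondrial iron importer, rose by log2 0.68 with shDHX15-1, 0.42 with shDHX15-2 and 0.61 with ciclopirox. In cytosolic iron-sulphur assembly all 10 genes were tested: 2 rose and 6 fell with shDHX15-1, 2 rose and 7 fell with shDHX15-2, and 1 rose and 3 fell with ciclopirox. GLRX3, a glutaredoxin that carries iron-sulphur clusters, fell by log2 -0.59 with shDHX15-1, -0.39 with shDHX15-2 and -0.70 with ciclopirox.

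All 10 heme synthesis genes were tested, of which 4 rose and 3 fell with shDHX15-1, 3 rose and 4 fell with shDHX15-2, and 4 rose and 3 fell with ciclopirox. ALAS1, the first enzyme of the pathway, rose by log2 0.39 with shDHX15-1, 0.22 with shDHX15-2 and 0.76 with ciclopirox. Of the heme transport and breakdown genes 7 of 10 were tested; 4 rose and 3 fell with shDHX15-1, 2 rose and 2 fell with shDHX15-2, and 2 rose and 1 fell with ciclopirox. SLC48A1, which carries heme out of lysosomes, rose to 427 ± 49.3 normalised counts with ciclopirox, against 72.8 ± 9.98 with DMSO (SD, n = 3 each; log2 2.54, limma adjusted p = 2.21e-06), and to 3.12 ± 0.057 RPKM with shDHX15-1, against 1.09 ± 0.065 RPKM with shGFP. With shDHX15-2 SLC48A1 was at 1.10 ± 0.069 RPKM, a log2 difference from shGFP of 0.01 (limma adjusted p = 0.845). HMOX2, the constitutive heme oxygenase, fell by log2 -0.60 with shDHX15-1, -0.55 with shDHX15-2 and -0.74 with ciclopirox.

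Of the NFE2L2 and BACH1 genes with common targets, 11 of 13 were tested with the hairpins: 2 rose and 9 fell with shDHX15-1 (median log2 -0.34, against 0.09 over all genes), and 3 rose and 7 fell with shDHX15-2 (median -0.32, against 0.03). With ciclopirox 10 were tested, of which 2 rose and 4 fell (median -0.09, against -0.02). TXNRD1, thioredoxin reductase, fell to 24.7 ± 0.48 RPKM with shDHX15-1 and 31.0050 ± 0.26 RPKM with shDHX15-2, against 42.9 ± 0.36 RPKM with shGFP, and by log2 -0.86 with ciclopirox. SLC7A11, the cystine importer, rose with ciclopirox to 1546 ± 326 normalised counts, against 524 ± 164 with DMSO (SD, n = 3 each; log2 1.59, limma adjusted p = 0.000207). With the hairpins SLC7A11 fell, to 0.793 RPKM with shDHX15-1 (log2 -0.26, limma adjusted p = 0.00126) and 0.478 RPKM with shDHX15-2 (log2 -0.54, limma adjusted p = 1.71e-05), against 1.1501 RPKM with shGFP.

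DHX15 immunoprecipitation gave peaks, counted on either strand, in 2 of the 10 iron genes, FTH1 and FBXL5. Of the 4499 peaks deposited, 92.2% fell within a RefSeq gene span, and their median fold enrichment was 1.65. Folds and FDRs of peaks were computed by the authors, and no values per library were used. FTH1 held one peak of 101 bases on the plus strand (chr11:61965188-61965288; fold 1.84, FDR 0.000112) and one of 1512 bases on the minus strand (chr11:61965575-61967086; fold 1.51, FDR 0.00679). The strand of FTH1 was not used here, so these opposite peaks are not assigned to FTH1 mRNA. Of all peaks, 76.2% had a lower fold than the plus-strand peak and 8.0% a lower fold than the minus-strand peak. FBXL5 held one peak of 1017 bases on the minus strand, the strand of the gene (chr4:15655302-15656318; fold 1.70, FDR 0.00311). That peak reached 961 bases upstream and 55 bases downstream of the RefSeq start base used here, so it covered the whole FBXL5 promoter printed above. The RefSeq span of FBXL5 (chr4:15604381-15681569) extends upstream beyond that start and beyond the peak. The whole peak therefore lay inside the gene span, and whether its RNA was FBXL5 transcript was not tested.

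Of 11362 tested genes with a RefSeq span 24.2% held a peak, so 2 of 10 is near the background. In the tenth of genes with the highest RPKM, which holds TFRC, FTH1, FTL and NCOA4, 20.1% held a peak. In the decile of FBXL5 and IREB2 28.3% did. TFRC, FTL, SLC40A1, SLC11A2, IREB2, ACO1, NCOA4 and HMOX1 held no listed peak. None of the 3 peaks reached a fold of 2.

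In the mouse thymus there was 1 library a group, so differences have no replicate check and no test was made; intervals are exact 95% Poisson intervals and cover counting error only. After filters 7261 KO and 8818 flox cells remained, with a median of 7197 and 3710 UMIs per cell, and the libraries shared 17 barcodes. Levels are given as CPM, UMI counts scaled to a total of 1000000 per library or class. Dhx15 was at 100.2 CPM in KO cells and 181 in flox cells; as the deleted exons are not known, 3' tags of the gene may lie outside them. Cell classes differed in share: resting CD4+CD8+ (DP)-like cells made up 23.6% of KO and 65.8% of flox cells, early DN2-3-like cells 16.2% and 1.33%, macrophage-like cells 1.54% and 0.352%, and unnamed clusters 33.7% and 3.59%. The Dhx15 ratio of KO over flox also varied among the classes described below, from 0.382 in S phase-like to 0.855 in DN2-3-like cells. In resting DP-like cells it was 0.696, and in their cluster 2, which held most KO cells of that class, 0.804. Granulocyte markers summed to 527 CPM in the KO library and 17.5 in the flox library, macrophage markers to 83.6 and 53.5, and erythroid markers to 2.63 and 1.76, with 2 of 7 erythroid markers at 0 in KO and 1 of 7 in flox. Their part in the whole-thymus values below was not tested.

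Over all cells, Slc40a1 and Slc11a2 were more than 1.5-fold higher and Ftl1 more than 1.5-fold lower in KO than in flox cells, 3 of 10 genes, where 33.7% of 14073 genes passed that fold, 16.8% higher and 16.9% lower. Ftl1 was at 670.4 CPM (95% interval 665 to 676) in KO and 1074 (1065 to 1083) in flox cells, a ratio of 0.624. Fth1 was at 1338 (1330 to 1346) in KO and 1225 (1215 to 1234) in flox cells, a ratio of 1.09. Slc11a2 was at 28.1 (26.9 to 29.3) in KO and 18.6 (17.5 to 19.9) in flox cells, a ratio of 1.505 that lies at the threshold. Tfrc was at 54.8 (53.1 to 56.5) in KO and 43.3 (41.5 to 45.2) in flox cells. Ireb2 was at 32.4 (31.1 to 33.7) in KO and 46.6 (44.7 to 48.5) in flox cells, and Fbxl5 at 56.4 (54.7 to 58.1) in KO and 43.2 (41.4 to 45.1) in flox cells. Aco1, Ncoa4 and Hmox1 had ratios of KO over flox of 1.02, 0.971 and 1.249.

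Slc40a1 was found mostly in macrophage-like cells; macrophages are known to recycle iron from red cells. It was at 2.42 CPM (2.08 to 2.80) in KO and 0.7001 (0.488 to 0.974) in flox cells over the whole library. Of its UMIs, 138 of 180 in KO and 28 of 35 in flox fell in macrophage-like cells, and within these cells it was at 554 (466 to 655) in KO and 450.4 (299 to 651) in flox, with overlapping intervals. In resting DP-like cells 3 UMIs were found in each library. The ratio of 3.45 over the whole library thus stands beside a macrophage-like share of 1.54% in KO and 0.352% in flox cells. Hmox1 also had its highest level there, at 145 (101 to 200.1) in KO and 96.5 (35.4 to 210.1) in flox macrophage-like cells, against 1.14 in KO and 0.953 in flox resting DP-like cells, although 36 of 108 Hmox1 UMIs in KO and 6 of 58 in flox came from macrophage-like cells. Both ferritin chains peaked there too: Fth1 was at 7765 in KO and 8847 in flox, and Ftl1 at 9648 in KO and 11502 in flox macrophage-like cells.

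Ftl1 was lower in KO than in flox cells in 7 of the 8 classes described, and past 1.5-fold in the resting DP-like and TCR-signalled-like classes. In resting DP-like cells it was at 845 CPM (822 to 868) in KO and 1291 (1276 to 1307) in flox, a ratio of 0.654. Most KO cells of this class lay in cluster 2 (1317 of 1715) and most flox cells in clusters 13 and 15 (1580 and 3029 of 5800). Within cluster 2 Ftl1 was at 813 (788 to 838) in KO and 1288 (1126 to 1468) in the 54 flox cells, a ratio of 0.631. Within cluster 13 Ftl1 was at 1049 (959 to 1146) in KO and 1213 (1186 to 1240.3) in flox, and within cluster 15 at 1037 (924 to 1159) in KO and 1377 (1354 to 1400.4) in flox, ratios of 0.865 and 0.753 that do not reach 1.5-fold. Clusters 11 and 14 gave ratios of 0.701 and 0.681, also short of 1.5-fold. In TCR-signalled-like cells Ftl1 was at 965 (902 to 1031) in KO and 1454 (1414 to 1494) in flox. In mature SP-like cells, which are CD4 or CD8 single-positive, it was at 807 (749 to 869) in KO and 1191 (1168 to 1215) in flox, a ratio of 0.678 that does not reach the fold used. In G2 and mitosis-like cells it was at 498 (478 to 519) in KO and 667 (646 to 688) in flox, and in NK and innate-like cells at 617 (585 to 651) in KO and 792 (723 to 867) in flox. In DN2-3-like cells it was at 739 (724 to 755) in KO and 715 (672 to 759) in flox. In S phase-like cells, with the lowest Ftl1 of the named classes, it was at 419 (411 to 428) in KO and 477 (459 to 495) in flox.

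Fth1 differed less between the libraries: its ratio of KO over flox lay between 0.836 in NK and innate-like cells and 1.10 in TCR-signalled-like cells. Slc11a2 was at 41.2 (36.3 to 46.6) in KO and 20.2 (18.2 to 22.2) in flox resting DP-like cells, a ratio of 2.05. It was also past the fold in G2 and mitosis-like cells, at 29.8 (25.1 to 35.1) in KO and 14.9 (11.9 to 18.4) in flox, and in mature SP-like cells, at 31.9 (21.2 to 46.1) in KO and 17.0 (14.2 to 20.03) in flox. Within cluster 2 Slc11a2 was at 44.1 (38.5 to 50.4) in KO, while the 54 flox cells held 0 UMIs, which allows up to 21.03 CPM by counting error. Within cluster 13 Slc11a2 was at 31.9 (17.9 to 52.7) in KO and 20.495 (17.1 to 24.3) in flox, and within cluster 15 at 30.3 (13.9 to 57.5) in KO and 19.8 (17.2 to 22.8) in flox; the ratios of 1.56 and 1.53 were past the fold, with intervals that overlap. In cluster 11 the ratio was 1.36.

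Tfrc differed between cell classes in both libraries. It was at 70.6 (67.1 to 74.2) in KO and 82.95 (75.6 to 90.8) in flox S phase-like cells, and at 82.3 (64.6 to 103) in KO and 69.1 (60.6 to 78.4) in flox TCR-signalled-like cells. In resting DP-like cells it was at 25.2 (21.4 to 29.4) in KO and 20.3 (18.3 to 22.3) in flox, and in NK and innate-like cells at 16.5 (11.6 to 22.8) in KO and 10.1 (3.69 to 21.9) in flox. Ireb2 was at 55.8 (50.1 to 62.1) in KO and 60.6 (57.2 to 64.1) in flox resting DP-like cells. In DN2-3-like cells Ireb2 was at 31.7 (28.6 to 35.1) in KO and 47.9 (37.4 to 60.4) in flox, a ratio of 0.662 just past 1.5-fold. In S phase-like cells it was at 24.7 (22.7 to 26.9) in KO and 25.8 (21.7 to 30.3) in flox. Counted by class, the iron genes past 1.5-fold in either direction were 2 of 9 with enough UMIs in resting DP-like cells (22.7% of all genes), 1 of 8 in DN2-3-like (17.7%), 1 of 8 in mature SP-like (26%) and 0 of 9 in S phase-like cells (14.1%). They were 1 of 8 in TCR-signalled-like (22.9%), 2 of 8 in G2 and mitosis-like (20.3%), 2 of 7 in NK and innate-like (26.6%) and 0 of 5 in macrophage-like cells (43.2%).

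**Figure D4:**
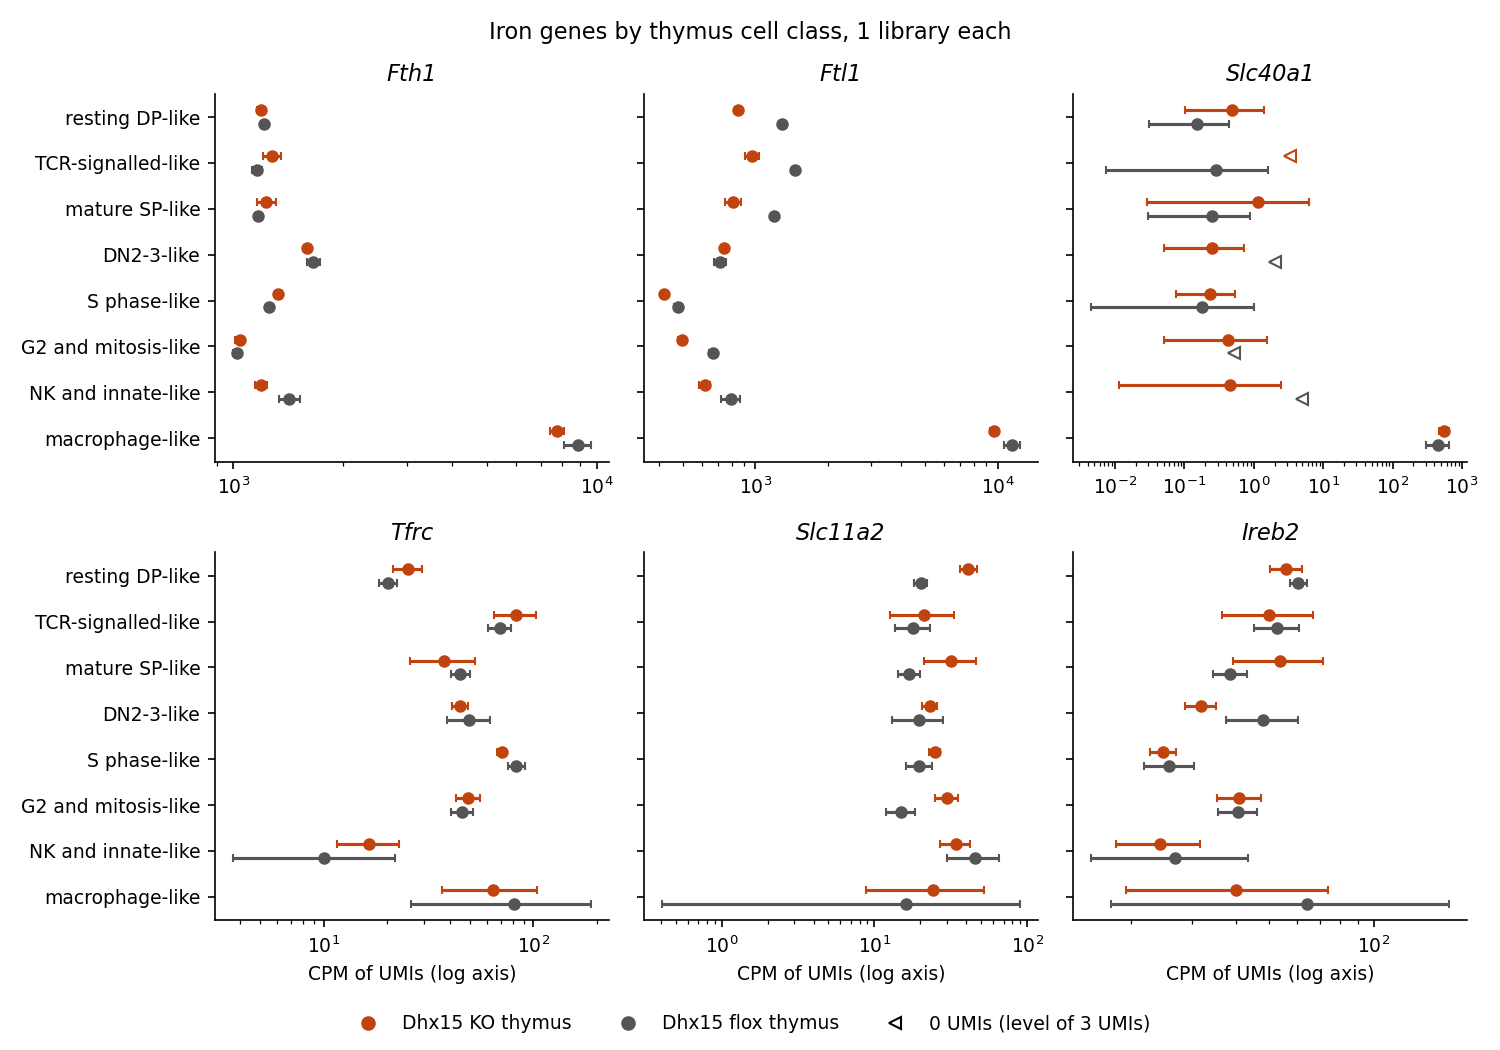
CPM of UMIs (log axis) for 6 iron genes in 8 thymus cell classes for the Dhx15 KO library and the Dhx15 flox library, 1 library each, with exact 95% Poisson intervals for counting error; open triangles mark the level of 3 UMIs where a class had 0. Ferritin and Slc40a1 were highest in macrophage-like cells, and Ftl1 was lower in KO than in flox resting DP-like cells (845 and 1291).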

How the data were processed

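RNA of CUTLL1 libraries was analysed as RPKM values deposited by the authors and as gene counts that the authors had divided by size factors (normalised counts, a signal), per the file headers; the dose of 5 µM is from the headers. The deposited ciclopirox table also gives the authors' log2 fold changes, p-values and a test score. These were read to check direction, and the authors' log2, SE and adjusted p are printed only for iron genes not called here with ciclopirox. The peak list gives the authors' fold (a ratio), p-value, FDR and score per peak. The peak caller, and how the 2 immunoprecipitated libraries entered it, are not stated. The deposited thymus matrices hold UMI counts per gene and barcode. STAR 2.7.5c, DESeq2 1.32.0 and Cell Ranger 6.0.2 are among the tools in the submitters' processing notes.

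Values were log2 transformed after adding 1 and fitted with limma 3.58.1 (R 4.3.3; trend, two-sided, Benjamini-Hochberg over all genes tested, threshold 0.05): 9 hairpin libraries together (genes of at least 1 RPKM in 3 libraries) and 6 ciclopirox and DMSO libraries (at least 10 in 3). Reads recovered from the deposited values were tested with edgeR 4.0.16 and DESeq2 1.42.0 as alternatives. In the hairpin libraries each gene length was chosen to give whole reads, found for 19748 of 19848 genes. Wholeness is therefore no check there. In the ciclopirox and DMSO libraries 100% of values were whole within 0.01 reads. The fit was tested on simulated data. Peaks were placed on RefSeq spans (GRCh38.p14). Thymus cells with at least 500 genes and under 10% mitochondrial UMIs were clustered with scanpy 1.11.5 (Leiden resolution 1) without the iron genes and Dhx15, and classes were named from marker genes; the limit on markers of another class among a cluster's top 10 genes was set after the clusters were seen, and a difference from the study may come from these rebuilt names. The doublet caller marked 1 KO and 0 flox barcodes, so it did not work and no doublets were removed. UMIs were summed by library and class, and a ratio past 1.5-fold with at least 20 UMIs counts as called. The members and lists were chosen with earlier results of these data known. Named genes are all 10 members, DHX15, up to 2 rises and 2 falls of each further list in each comparison (the largest among called genes of at least 1 RPKM or 100 normalised counts), and the 3 genes most like TFRC and FTH1; the text gives a part of those of the lists. The IRE motif was added after the promoters were seen.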

Additional observations from a re-analysis of the deposited data

Results flagged for a closer look

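FTL is the 1 value singled out here, because its response differed between the hairpins by a test of the difference itself: shDHX15-2 over shDHX15-1 gave a log2 of 1.18 (limma adjusted p = 2.7e-08), with all 3 shDHX15-2 libraries (709.5 to 724 RPKM) above all 3 shDHX15-1 libraries (304 to 323 RPKM). FTL fell with shDHX15-1 against shGFP and did not pass the test with shDHX15-2, while DHX15 itself was at 16.5 RPKM with shDHX15-2 and 16.97 RPKM with shDHX15-1. The log2 difference between the hairpins stayed between 0.997 and 1.26 over 14 alternatives. Its cause was not tested.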

How the results depend on the processing

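The counts of iron genes called in the bulk comparisons stayed within 1.5 times their value under every alternative run: 6 to 8 with shDHX15-1, 6 to 7 with shDHX15-2, 6 to 8 between the hairpins and 4 to 7 with ciclopirox. The other values compared were those of single genes together with further counts, such as the number of all genes called. Of these, 651 stayed the same, 22 lost the call, 16 gained one, 12 moved and 17 changed sign, mostly values near 0. With shDHX15-1, NCOA4 became -0.00878 after median-centring, and SLC11A2 -0.0446 after median-centring, -0.0425 after quantile normalisation, -0.0201 with edgeR and -0.0277 with DESeq2. With shDHX15-2, FTH1 became -0.0178 after median-centring, -0.000462 with edgeR and -0.0116 with DESeq2, and FTL -0.0392 after quantile normalisation. Between the hairpins, IREB2 became 0.0504 after median-centring, 0.0183 after quantile normalisation, 0.0515 with edgeR and 0.0479 with DESeq2. With ciclopirox, NCOA4 became 0.0412 after quantile normalisation, FTH1 became -0.0316 after median-centring, and leaving out 1 library put FTH1 between -0.0165 (without DMSO replicate 3) and 0.189 (without DMSO replicate 1). The causes were not tested. No iron gene kept a DHX15 peak at a fold of at least 2, which gives 0 in place of 2 genes. Leaving out 1 library gave 4 to 7 calls with ciclopirox, 6 to 7 with shDHX15-1, 6 with shDHX15-2 in each case and 6 to 8 between the hairpins.

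Same-numbered libraries had correlated deviations between -0.000609 and 0.0951 in the hairpin experiment and between -0.108 and 0.163 in the ciclopirox experiment. Libraries of unlike number gave -0.123 to 0.0466 and -0.289 to 0.182. These values do not settle whether the replicate numbers pair the hairpin libraries, and the main fits used no pairing. A replicate block gave 6 calls with shDHX15-1, 6 with shDHX15-2, 7 between the hairpins and 5 with ciclopirox; it lost SLC40A1 between the hairpins (-0.15; limma adjusted p = 0.0598). The setting without doublets was not run, nor the one by strand of the peaks, for which the strand of FTH1 was not used here. Depth limits the thymus classes with few cells, macrophage-like and NK and innate-like above all.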

Other observations

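Genes of iron-linked lipid peroxidation and of hepcidin signalling were called at shares to be read against those of all genes, 74.3% with shDHX15-1, 65.7% with shDHX15-2 and 48.5% with ciclopirox. Of 9 lipid peroxidation genes, 6 were tested with the hairpins: 2 rose and 1 fell with shDHX15-1, and 2 rose and 3 fell with shDHX15-2; with ciclopirox 7 were tested, of which 1 rose and 2 fell. ACSL4, the enzyme that loads polyunsaturated fatty acids into membrane lipids, was at 5.39 ± 0.13 RPKM with shDHX15-1 and 8.64 ± 0.36 RPKM with shDHX15-2, against 11.02 ± 0.23 RPKM with shGFP (SD, n = 3 each). It fell by log2 -0.91 with shDHX15-1, -0.32 with shDHX15-2 and -0.86 with ciclopirox. GPX4, the enzyme that reduces lipid peroxides, rose by log2 0.21 with shDHX15-2 and 0.47 with ciclopirox (limma adjusted p = 0.0128), while its log2 difference with shDHX15-1 was 0.02 (limma adjusted p = 0.537). Of the hepcidin signalling genes, 5 of 10 were tested with the hairpins: 3 rose and none fell with shDHX15-1, and 3 rose and 1 fell with shDHX15-2. SMAD4, the shared signal carrier of that pathway, rose by log2 0.33 with shDHX15-1 and 0.24 with shDHX15-2. With ciclopirox 8 were tested, of which 2 rose.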
